A study of Homo sapiens with 6 samples.

Results

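The extracellular matrix genes described here are a fixed list of 36 genes for collagens, laminins, other basement membrane proteins, matrix glycoproteins, fibrillin and its relatives, and syndecans. They were measured in T24 cells, an established human bladder cancer (Bca) cell line, and 36 of the 58288 gene identifiers in the deposited table belong to the list. Each library came from T24 cells transfected with 1 of 3 siRNAs. The labels call them siControl, siRNA1 and siRNA2, and the study calls them NC, si-circ235-1 and si-circ235-2. NC is the control, and both others are directed against circ235 (circ_0000235), a circular RNA made from CCNY. Each condition had 2 libraries labelled as biological replicates, so that every condition shared the cell line and the transfection and differed in the siRNA. With 1 cell line and 1 control siRNA, a response to losing circ235 and a response to the sequence of an siRNA cannot be told apart within 1 siRNA. Polyadenylated RNA was sequenced, which leaves out circular RNA, so the table holds no value for circ235 itself and no check of the knockdown.

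Epithelial cells rest on a basement membrane, a thin sheet whose scaffold is made of collagen IV and laminin networks. Nidogen and perlecan tie both networks together, agrin adds to the sheet, and collagen VII and collagen XVII anchor epithelial cells to what lies under it. Laminins are trimers of an alpha, a beta and a gamma chain, and collagen IV molecules are trimers built mostly from the products of COL4A1 and COL4A2. Fibrillin forms microfibrils that hold latent TGF-beta through the latent TGF-beta binding proteins (LTBPs), and syndecans are transmembrane proteoglycans that bind matrix and growth factors at the cell surface. Bca cells meet this sheet when they grow in the bladder lining and cross it when they invade.

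Per library, 15373992 to 19912893 reads were counted on genes in the table that the authors deposited. Of the 36 matrix genes, 28 passed edgeR's filter on low counts and were tested among 14415 genes. Levels are given as CPM, the count scaled to the library total, after TMM normalization, whose factors ran from 0.8896 to 1.193. A gene is referred to as called where edgeR's quasi-likelihood test gave it a Benjamini-Hochberg adjusted p under 0.05 over all genes tested. Counts of replicates varied more than counting error alone would give (chi-square over its degrees of freedom, 23.4 to 34.9). Fewer cells making an mRNA and less of it per cell cannot be told apart in such bulk samples. Of the epithelial keratins, KRT7, KRT8 and KRT18 lay between 618 and 2305 CPM over the libraries, while 7 of 13 epithelial markers, among them CDH1, KRT5 and KRT19, stayed below 1 CPM in all of them. Summed over the 13 markers, the level was 3919 to 5586 CPM in NC, 4307 to 4629 in si-circ235-1 and 3106 to 3689 in si-circ235-2. Among 10 fibroblast markers, 9 stayed below 1 CPM, COL1A2 and COL3A1 had 0 counts in every library, and the sum ran from 1.18 to 1.40 CPM in NC, 1.17 to 2.66 in si-circ235-1 and 1.59 to 1.67 in si-circ235-2. Of 5 endothelial and 5 leukocyte markers, 4 of each stayed below 1 CPM. The endothelial sum was 0.549 to 0.721 CPM in NC, 1.19 to 2.68 in si-circ235-1 and 1.12 to 1.58 in si-circ235-2. The leukocyte sum was 2.88 to 3.24 CPM in NC, 10.2 to 10.97 in si-circ235-1 and 1.77 to 2.48 in si-circ235-2. The part of these marker levels in the results was not tested.

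Matrix genes moved under both siRNAs, with more calls under si-circ235-2, as among all genes tested. That order was reversed in an alternative fit described below. Under si-circ235-1, 4 of the 28 tested members rose against NC (COL4A1, LAMC1, NID1 and SDC4) and 1 fell (TNC), where 2.24% of all genes tested were called higher and 3.64% lower. Under si-circ235-2, 12 rose and 3 fell, against a background of 15.7% called higher and 15.7% called lower among all genes. Between the siRNAs, 11 members were higher under si-circ235-2 and 7 were lower, and 21.1% and 18.6% of all genes tested were called in those directions. The median log2 fold change of the 28 members was 0.21 under si-circ235-1 and 0.38 under si-circ235-2, beside -0.03 and -0.00 over all genes tested. Both comparisons with NC share its 2 libraries and are not independent of each other. Without TMM factors the median of all genes moved to -0.11 under si-circ235-1, 0.25 under si-circ235-2 and 0.37 between the siRNAs, and members called higher and lower between the siRNAs numbered 12 and 4, where 31.5% and 10.4% of all genes tested were called. Calls under si-circ235-1 depended on having 2 libraries of it and of NC. Some member calls were lost without NC replicate 1, NC replicate 2 or si-circ235-1 replicate 1. All were lost without si-circ235-1 replicate 2. Without that library edgeR called 0 of 15037 genes against NC, while 2110 had an unadjusted p under 0.05, 10 of them members; with all 6 libraries DESeq2 called 669 genes higher and 779 lower.

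**Figure D1:**
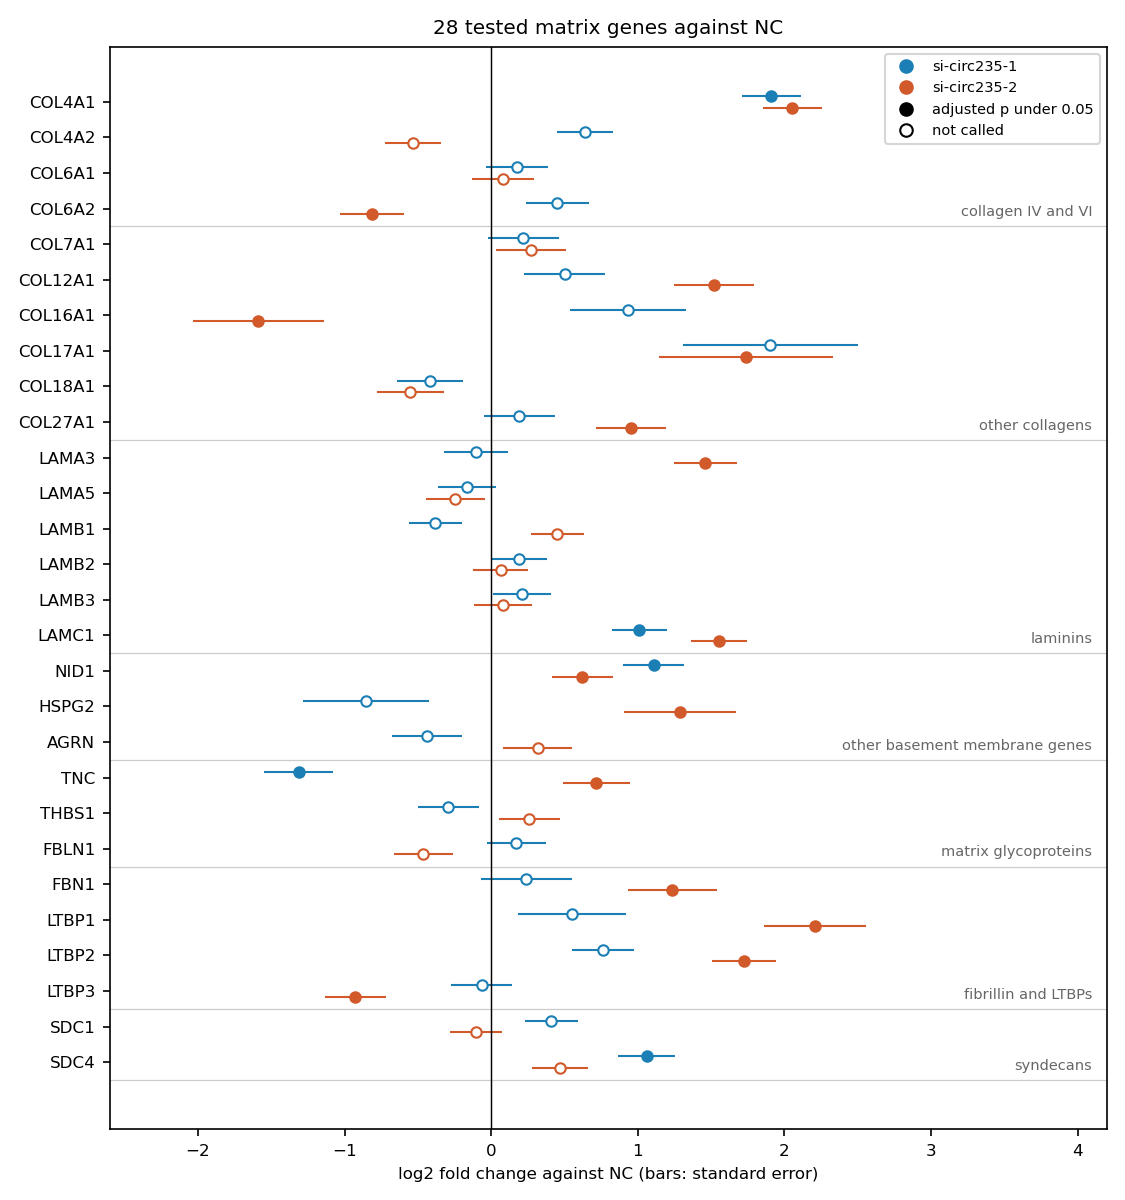
Log2 fold change of the 28 tested matrix genes against NC (x axis; bars are standard errors; filled points have an edgeR adjusted p under 0.05), by role. COL4A1 and LAMC1 lie to the right under both siRNAs, and TNC lies at -1.31 under si-circ235-1 and 0.72 under si-circ235-2.

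Almost no counts fell on the 8 listed genes that did not pass the filter. LAMA4 and COL5A1 had 0 counts in every library. COL6A3 had 1 count, COL8A1 had 1 and SPARC had 5 over all 6 libraries. COL5A2, with 23 counts in all, and EFEMP1 and COL13A1, with 45 each, reached at most 0.382, 0.794 and 0.669 CPM in a library. These genes encode the alpha4 laminin chain, both collagen V chains listed, the third collagen VI chain, collagens VIII and XIII, osteonectin and fibulin-3, and none of them was tested. Among the 28 tested members, level in NC per kilobase of transcript was highest for FBLN1, at 108 ± 16.3 CPM per kilobase (SD, n = 2), followed by SDC4 at 84.9 ± 11.7, AGRN at 78.0 ± 4.71, COL6A2 at 75.1 ± 19.2, COL18A1 at 69.5 ± 7.58 and LAMA5 at 63.3 ± 3.53. Both FBLN1 values lay above both SDC4 values, while from SDC4 on the values of each gene overlapped those of the next, so the order of these genes was not settled by 2 libraries. COL12A1, COL16A1, FBN1, LTBP1, HSPG2 and COL17A1 were lowest, from 0.414 down to 0.0787 CPM per kilobase.

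COL4A1 and COL4A2 encode the alpha1 and alpha2 chains of collagen IV and are transcribed in opposite directions from 1 shared promoter on chromosome 13. COL4A1 (ENSG00000187498.14) lies on the minus strand of GRCh38 from 110148963 to 110307233, and COL4A2 (ENSG00000134871.17) on the plus strand from 110305812 to 110513209. The promoter between them is shown because both chains share it while their mRNA levels moved apart. It is given from RefSeq (GRCh38.p14, chr13:110307034-110307333, plus strand), and the capitals mark the 126 bases between the start sites, at 110307157 for COL4A1 and 110307284 for COL4A2.
COL4A1 and COL4A2 shared promoter: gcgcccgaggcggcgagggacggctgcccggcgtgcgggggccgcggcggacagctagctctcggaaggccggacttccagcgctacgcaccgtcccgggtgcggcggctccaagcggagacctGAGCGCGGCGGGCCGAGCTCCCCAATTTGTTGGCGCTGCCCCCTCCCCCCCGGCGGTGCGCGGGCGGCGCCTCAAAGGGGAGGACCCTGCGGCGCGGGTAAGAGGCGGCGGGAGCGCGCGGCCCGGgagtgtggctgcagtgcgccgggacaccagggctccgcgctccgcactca
Both motifs searched on both strands in this window were found 1 time each, between the start sites. The GC box, GGGCGG, starts 65 bases before the COL4A2 start site and the CCAAT box, CCAAT, 105 bases before it.

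Of collagen IV, the alpha1 chain gene rose under both siRNAs. COL4A1 measured 18.3 and 24.1 CPM in NC, 80.1 and 79.8 under si-circ235-1 and 85.0 and 91.3 under si-circ235-2. All 4 libraries with a circ235 siRNA were above both NC libraries, and COL4A1 was 3.76-fold higher under si-circ235-1 (log2 fold change 1.91, standard error 0.20, edgeR adjusted p = 0.00586) and 4.15-fold higher under si-circ235-2 (2.05, standard error 0.20, edgeR adjusted p = 0.00145). Between the siRNAs its log2 fold change was 0.14 (standard error 0.19, edgeR adjusted p = 0.580). Without replicate 2 of si-circ235-1 the call for that siRNA was lost, at a log2 fold change of 1.92 (edgeR adjusted p = 0.130).

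COL4A2 went different ways. Its level was 114 and 113 CPM in NC, 202 and 150 under si-circ235-1 and 77.1 and 79.3 under si-circ235-2, and the 3 conditions did not overlap. The difference between the siRNAs was called, with COL4A2 under si-circ235-2 2.25-fold below its si-circ235-1 level (log2 fold change -1.17, standard error 0.19, edgeR adjusted p = 0.00140). Against NC the log2 fold changes were 0.64 (edgeR adjusted p = 0.0724) and -0.53 (edgeR adjusted p = 0.0545), neither of them called, and DESeq2 called both, at 0.66 and -0.54. Within each library, COL4A1 relative to COL4A2, both per kilobase, was 0.159 and 0.210 in NC, 0.390 and 0.521 under si-circ235-1 and 1.08 and 1.13 under si-circ235-2. Per kilobase the alpha1 mRNA was thus below the alpha2 mRNA in NC and slightly above it under si-circ235-2. The annotated genes overlap by 1422 bases on opposite strands, and counts without strand cannot assign reads of that stretch to 1 of them.

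Collagen VI forms beaded microfilaments beside the basement membrane. COL6A2, its alpha2 chain gene, measured 307 and 213 CPM in NC, 358 and 353 under si-circ235-1 and 160 and 136 under si-circ235-2. It fell under si-circ235-2, 1.76-fold lower than in NC (log2 fold change -0.81, standard error 0.22, edgeR adjusted p = 0.0168), and was 2.40-fold lower than under si-circ235-1 (-1.26, edgeR adjusted p = 0.00162). The call against NC was lost without NC replicate 1, at -0.53, and without si-circ235-2 replicate 2, at -0.70. It was also lost, at -0.31 (edgeR adjusted p = 0.125), in an alternative fit that took out of every library a smooth dependence of its counts on how long and how GC-rich a transcript is, referred to here as removal of the length and GC trend. COL6A1, the alpha1 chain gene, stayed between 22.2 and 28.7 CPM over all 6 libraries and was not called in any comparison. The ratio of COL6A1 to COL6A2 per kilobase was 0.0753 and 0.0850 in NC, 0.0644 and 0.0665 under si-circ235-1 and 0.139 and 0.158 under si-circ235-2.

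**Figure D2:**
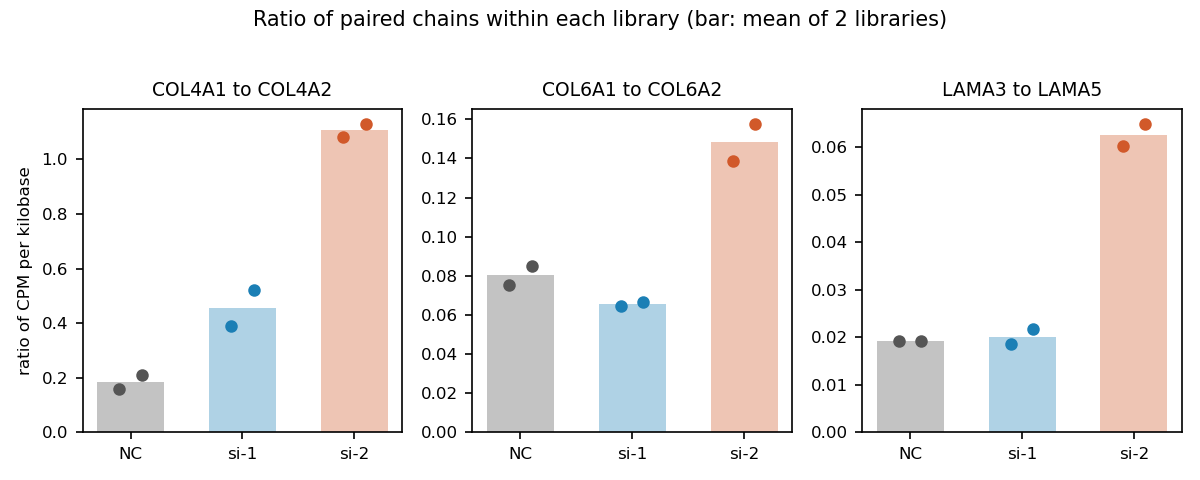
Ratio of CPM per kilobase of 2 chains in each library (points) with the mean of the 2 libraries (bars), y axis from 0, for collagen IV, collagen VI and the laminin alpha chains. COL4A1 to COL4A2 ran from 0.159 in an NC library to 1.13 in an si-circ235-2 library.

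Of the 10 other collagens listed, 6 were tested, 0 were called under si-circ235-1 and 4 under si-circ235-2. Over all genes tested, 2.24% were called higher and 3.64% lower under si-circ235-1, and 15.7% in each direction under si-circ235-2. COL12A1 and COL16A1 encode collagens that attach to the surface of collagen fibrils. COL12A1 measured 4.33 and 5.37 CPM in NC, 5.66 and 8.03 under si-circ235-1 and 13.6 and 14.2 under si-circ235-2. It was 2.87-fold higher under si-circ235-2 than in NC (log2 fold change 1.52, standard error 0.28, edgeR adjusted p = 0.00381), with both libraries above all 4 others. Without NC replicate 1 that change was 1.37 and no longer called (edgeR adjusted p = 0.0530). Removal of the length and GC trend brought it to 0.68, also not called (edgeR adjusted p = 0.0648).

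COL16A1 fell under si-circ235-2. It had 2.49 and 1.53 CPM in NC, 4.403 and 3.29 under si-circ235-1 and 0.707 and 0.621 under si-circ235-2, and the conditions did not overlap. Under si-circ235-2 it was 3.01-fold lower than in NC (log2 fold change -1.59, standard error 0.45, edgeR adjusted p = 0.0220) and 5.74-fold lower than under si-circ235-1 (-2.52, standard error 0.44, edgeR adjusted p = 0.00167). Against NC the call was lost without NC replicate 1, at -1.20, without si-circ235-2 replicate 1, at -1.68, and without si-circ235-2 replicate 2, at -1.49, while that between the siRNAs was kept under every alternative.

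COL27A1 encodes a fibrillar collagen known from cartilage. Its level was 8.72 and 11.1 CPM in NC, 12.1 and 10.6 under si-circ235-1 and 19.4 and 19.0 under si-circ235-2, 1.94-fold higher than in NC (log2 fold change 0.95, standard error 0.24, edgeR adjusted p = 0.0129). The call was lost without NC replicate 1, at 0.78. COL17A1 encodes the transmembrane collagen of hemidesmosomes, the junctions that hold epithelial cells to the basement membrane. COL17A1 was low, at 0.590 and 0.305 CPM in NC, 2.17 and 1.23 under si-circ235-1 and 1.83 and 1.19 under si-circ235-2. With 9 and 5 counts in the NC libraries, it passed the filter on low counts only through siRNA libraries. The filter thus favoured its rise, which is among the rises counted under si-circ235-2. All 4 siRNA libraries exceeded both NC libraries, but only the change under si-circ235-2 was called (1.74, standard error 0.60, edgeR adjusted p = 0.0460, against 1.90, standard error 0.60, edgeR adjusted p = 0.0814, under si-circ235-1). The si-circ235-2 call was lost with DESeq2 (adjusted p = 0.0722) and without any 1 of the NC or si-circ235-2 libraries, at 1.35 to 2.27. It was lost too on removal of the length and GC trend, at 1.44 (edgeR adjusted p = 0.0918), where the si-circ235-1 change became a call, at 2.10 (edgeR adjusted p = 0.0404). COL7A1, the anchoring fibril collagen, stayed between 12.8 and 19.3 CPM, and COL18A1, the source of endostatin, between 276 and 493 CPM. Neither was called in any comparison. The COL18A1 gene overlaps SLC19A1 on the other strand.

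**Figure D3:**
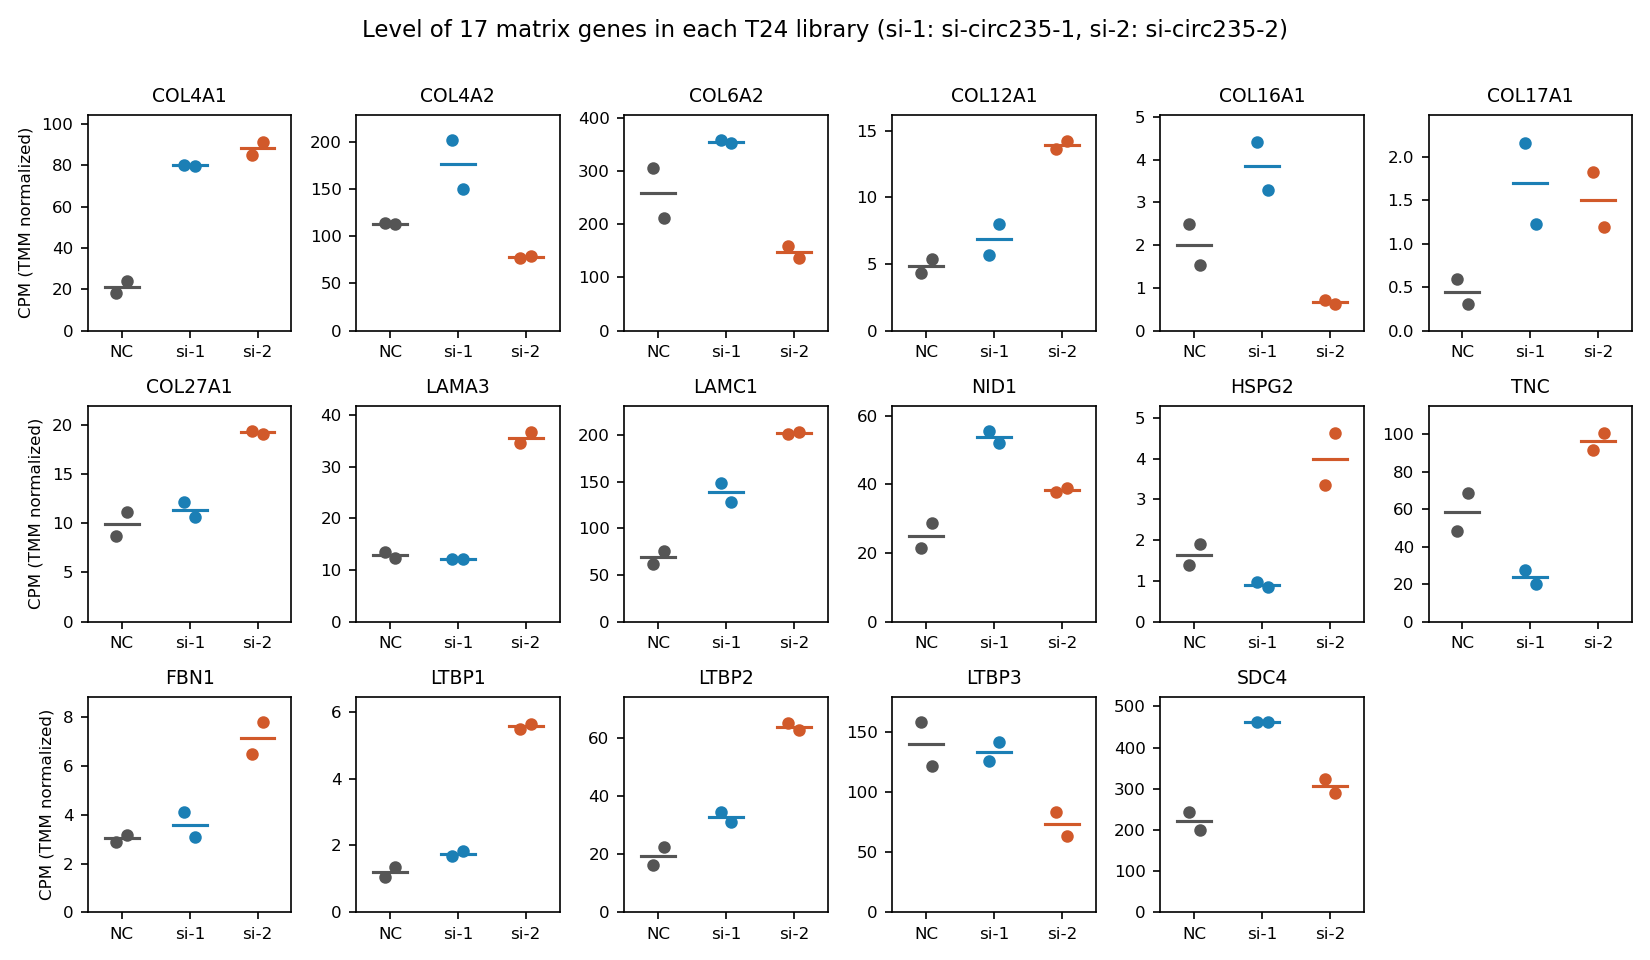
Level of 17 matrix genes in each library, in CPM after TMM normalization (y axes from 0 and different between panels; lines are means of 2 libraries). COL4A1 is high under both siRNAs, HSPG2, LAMA3 and LTBP1 are high under si-circ235-2, and COL4A2 and COL6A2 are highest under si-circ235-1 and lowest under si-circ235-2.

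Of the 7 laminin chain genes, 6 were tested, 1 rose under si-circ235-1 and 2 rose under si-circ235-2. Over all genes tested, 2.24% and 15.7% were called higher under these siRNAs. LAMC1, the gamma1 chain found in most laminin trimers, measured 61.9 and 75.8 CPM in NC, 149 and 128 under si-circ235-1 and 201 and 204 under si-circ235-2. The groups did not overlap, and LAMC1 was 2.01-fold higher under si-circ235-1 (log2 fold change 1.01, standard error 0.19, edgeR adjusted p = 0.0165) and 2.94-fold higher under si-circ235-2 (1.55, standard error 0.19, edgeR adjusted p = 0.00179). The si-circ235-1 call was lost without NC replicate 1, at 0.87, without si-circ235-1 replicate 1, at 0.89, and without si-circ235-1 replicate 2, at 1.12. The si-circ235-2 call was kept under every alternative.

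LAMA3, the alpha3 chain of laminin-332, the laminin of hemidesmosomes, had 13.5 and 12.4 CPM in NC, 12.02 and 12.05 under si-circ235-1 and 34.5 and 36.8 under si-circ235-2. Only si-circ235-2 libraries were high, 2.75-fold above NC (log2 fold change 1.46, standard error 0.22, edgeR adjusted p = 0.00228) and 2.96-fold above si-circ235-1 (1.57, standard error 0.22, edgeR adjusted p = 0.000777). Both calls were kept under every alternative. LAMB3, the beta3 chain of the same trimer, lay between 99.8 and 144 CPM and was not called. Under si-circ235-2 its log2 fold change against NC was 0.08 (standard error 0.20, edgeR adjusted p = 0.793).

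The balance of alpha chains was also read within each library. Per kilobase, LAMA3 relative to LAMA5, the alpha5 chain of the mature epithelial basement membrane, was 0.0193 and 0.0191 in NC, 0.0186 and 0.0217 under si-circ235-1 and 0.0603 and 0.0649 under si-circ235-2. The GC content was 50.7% for LAMA3 and 66.4% for LAMA5, and the ratio is not corrected for it. Under si-circ235-2 the log2 fold changes against NC were 1.46 for LAMA3 and -0.24 for LAMA5. On removal of the length and GC trend they were 0.75 and -0.21. LAMA5 itself, at 595 to 751 CPM, and LAMB2, at 211 to 283 CPM, were not called in any comparison. LAMB1, the beta1 chain, was 58.1 and 68.3 CPM in NC, 48.4 and 48.6 under si-circ235-1 and 86.6 and 86.2 under si-circ235-2. It was called between the siRNAs, 1.78-fold higher under si-circ235-2 (log2 fold change 0.83, edgeR adjusted p = 0.00459), and in neither comparison with NC. That call was lost on removal of the length and GC trend, at 0.18 (edgeR adjusted p = 0.290). LAMB1 overlaps DLD on the opposite strand, and LAMA5 overlaps ADRM1.

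Nidogen, perlecan and agrin, the other basement membrane genes, were all tested. NID1 encodes nidogen-1, which binds laminin and collagen IV. It measured 21.3 and 28.6 CPM in NC, 55.5 and 52.1 under si-circ235-1 and 37.8 and 39.0 under si-circ235-2. All siRNA libraries lay above NC, by 2.15-fold under si-circ235-1 (log2 fold change 1.11, standard error 0.21, edgeR adjusted p = 0.0168) and 1.54-fold under si-circ235-2 (0.62, standard error 0.21, edgeR adjusted p = 0.0408). Without NC replicate 1 these became 0.91 and 0.42, and the si-circ235-2 change was called in only 4 of 12 alternatives. Removal of the length and GC trend left it at 0.12 (edgeR adjusted p = 0.596). The si-circ235-1 call was also lost without replicate 1 of that siRNA, at 1.06, and without its replicate 2, at 1.15.

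HSPG2 encodes perlecan, a large heparan sulfate proteoglycan. Its level was low, 1.38 and 1.89 CPM in NC, 0.978 and 0.837 under si-circ235-1 and 3.36 and 4.63 under si-circ235-2. The conditions did not overlap, and HSPG2 was 2.44-fold higher under si-circ235-2 than in NC (log2 fold change 1.29, standard error 0.38, edgeR adjusted p = 0.0264) and 4.41-fold higher than under si-circ235-1 (2.14, standard error 0.41, edgeR adjusted p = 0.00253). The call against NC was lost without NC replicate 1, at 1.07, without si-circ235-2 replicate 2, at 1.03, and with DESeq2, at 1.28 (adjusted p = 0.0527). AGRN, which encodes agrin, lay between 329 and 728 CPM. It was not called against NC and was higher under si-circ235-2 than under si-circ235-1 (0.75, edgeR adjusted p = 0.0280).

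Among the matrix glycoproteins, tenascin-C stood out by going both ways. TNC, a matrix protein of wound edges and tumor stroma, measured 48.4 and 68.7 CPM in NC, 27.4 and 19.8 under si-circ235-1 and 91.6 and 101 under si-circ235-2. The 3 conditions did not overlap. TNC fell under si-circ235-1, 2.48-fold lower than in NC (log2 fold change -1.31, standard error 0.23, edgeR adjusted p = 0.0151), rose under si-circ235-2 (0.72, standard error 0.23, edgeR adjusted p = 0.0343) and was 4.09-fold higher under si-circ235-2 than under si-circ235-1 (2.03, standard error 0.24, edgeR adjusted p = 0.000489). The si-circ235-1 call was lost without NC replicate 2, at -1.0, and without si-circ235-1 replicate 2, at -1.09, and the si-circ235-2 call without NC replicate 1, at 0.48, and without si-circ235-2 replicate 2, at 0.65. With the length and GC trend taken out, the si-circ235-2 change of TNC was 0.24 and not called (edgeR adjusted p = 0.337). The difference between the siRNAs was kept under every alternative. THBS1, which encodes thrombospondin-1, stayed between 59.4 and 89.6 CPM with no call. On removal of the length and GC trend it was called lower under si-circ235-2, at -0.47 (edgeR adjusted p = 0.0448). FBLN1, which encodes fibulin-1, lay between 207 and 377 CPM and was called only between the siRNAs (-0.64, edgeR adjusted p = 0.0278).

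Fibrillin and the 3 LTBPs listed were called under si-circ235-2, none of them was called under si-circ235-1, and all 4 differed between the siRNAs (edgeR adjusted p = 0.0221 for FBN1, 0.00333 for LTBP1, 0.00507 for LTBP2 and 0.00824 for LTBP3). Over all genes tested, 15.7% were called in each direction under si-circ235-2. Between the siRNAs 21.1% were called higher and 18.6% lower. On removal of the length and GC trend, the differences between the siRNAs of FBN1 (0.20, edgeR adjusted p = 0.549) and LTBP2 (0.40, edgeR adjusted p = 0.102) were not called. LTBP4, which is no member, was tested and not called against NC under si-circ235-2 (-0.43, edgeR adjusted p = 0.123). FBN1, which encodes fibrillin-1, measured 2.88 and 3.18 CPM in NC, 4.12 and 3.07 under si-circ235-1 and 6.48 and 7.78 under si-circ235-2, 2.35-fold above NC (log2 fold change 1.23, standard error 0.30, edgeR adjusted p = 0.0119). The call was lost without NC replicate 1, at 1.16, without si-circ235-2 replicate 2, at 1.10, and on removal of the length and GC trend, at 0.39 (edgeR adjusted p = 0.297). LTBP1, a carrier of latent TGF-beta, had 1.05 and 1.34 CPM in NC, 1.68 and 1.84 under si-circ235-1 and 5.48 and 5.63 under si-circ235-2. Its rise under si-circ235-2 was 4.62-fold (2.21, standard error 0.35, edgeR adjusted p = 0.00264) and was kept under every alternative. At 306 counts over all libraries, LTBP1 was among the shallower genes tested.

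LTBP2, an LTBP that does not bind TGF-beta and sits on elastic fibres, measured 16.2 and 22.5 CPM in NC, 34.4 and 31.2 under si-circ235-1 and 65.1 and 62.7 under si-circ235-2. Every siRNA library was above both NC libraries. Under si-circ235-2 LTBP2 was 3.30-fold higher than in NC (log2 fold change 1.72, standard error 0.22, edgeR adjusted p = 0.00179), a call kept under every alternative, and the si-circ235-1 change was 0.76 (standard error 0.21, edgeR adjusted p = 0.0606), called by DESeq2 (adjusted p = 0.0197). LTBP3, another TGF-beta carrier, went the other way. It had 159 and 121 CPM in NC, 126 and 142 under si-circ235-1 and 83.4 and 63.9 under si-circ235-2, 1.90-fold lower than in NC (-0.93, standard error 0.21, edgeR adjusted p = 0.00843). That call was lost without NC replicate 1, at -0.73, and without si-circ235-2 replicate 2, at -0.75. Of the 3 LTBPs listed, LTBP3 had the highest level per kilobase in NC, at 31.5 ± 5.90 CPM per kilobase (SD, n = 2), against 2.26 ± 0.518 for LTBP2 and 0.189 ± 0.0329 for LTBP1, and LTBP4 lay above it, at 56.5 ± 5.41.

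Syndecan-4, a surface proteoglycan, rose under si-circ235-1. SDC4 measured 244 and 200 CPM in NC, 463 and 462 under si-circ235-1 and 325 and 290 under si-circ235-2. The conditions did not overlap, and SDC4 was 2.08-fold higher than in NC under si-circ235-1 (log2 fold change 1.06, standard error 0.19, edgeR adjusted p = 0.0156), while under si-circ235-2 the change was 0.47 (standard error 0.19, edgeR adjusted p = 0.0839). The si-circ235-1 call was lost without NC replicate 1, at 1.21, NC replicate 2, at 0.96, si-circ235-1 replicate 1, at 1.05, or si-circ235-1 replicate 2, at 1.06. SDC1, which encodes syndecan-1, lay between 84.2 and 138 CPM. It was called only between the siRNAs, lower under si-circ235-2 (-0.51, edgeR adjusted p = 0.0427).

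Matrix genes are long and rich in G and C, so the refit with a trend over both removed was also read over the whole list. The tested members had a median transcript length of 6540 bases and a median GC content of 58.1%, against 3354 bases and 48.4% over the tested genes with an annotation. With that smooth trend removed from each library, 13 members rose and 1 fell under si-circ235-1, where 8.25% of all genes were called higher and 5.41% lower. Under si-circ235-2, 7 rose and 4 fell, where 11.2% and 14.7% of all genes were called, and between the siRNAs 5 were higher and 10 lower under si-circ235-2, where 17.2% and 23.2% were called. The shift thus went up under si-circ235-1 and down under si-circ235-2. Under si-circ235-2, 6 of the 15 calls were lost, those of COL6A2 at -0.31, COL12A1 at 0.68, COL17A1 at 1.44, NID1 at 0.12, TNC at 0.24 and FBN1 at 0.39. COL4A1, LAMA3, LAMC1, LTBP1 and LTBP2 were still called there, at 1.68, 0.75, 0.83, 1.67 and 1.37, and the fall of COL4A2 became a call, at -0.58 (edgeR adjusted p = 0.0134). All 5 calls under si-circ235-1 were kept, with COL4A1 at 2.11, LAMC1 at 1.01, NID1 at 1.22, SDC4 at 1.14 and TNC at -1.18. Calls gained under si-circ235-1 were all rises, of COL4A2 at 0.90, COL6A2 at 0.80, COL16A1 at 1.23, COL17A1 at 2.10 and LTBP2 at 0.97. LAMB2, LAMB3, FBLN1 and SDC1 were gained as well, at 0.48, 0.50, 0.46 and 0.74. COL4A2 was thus called in opposite directions under the siRNAs in this fit. Between the siRNAs LAMC1 changed sign, from 0.55 to -0.18, and LAMB2, LAMB3 and NID1 became calls, at -0.49, -0.44 and -1.10.

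**Figure D4:**
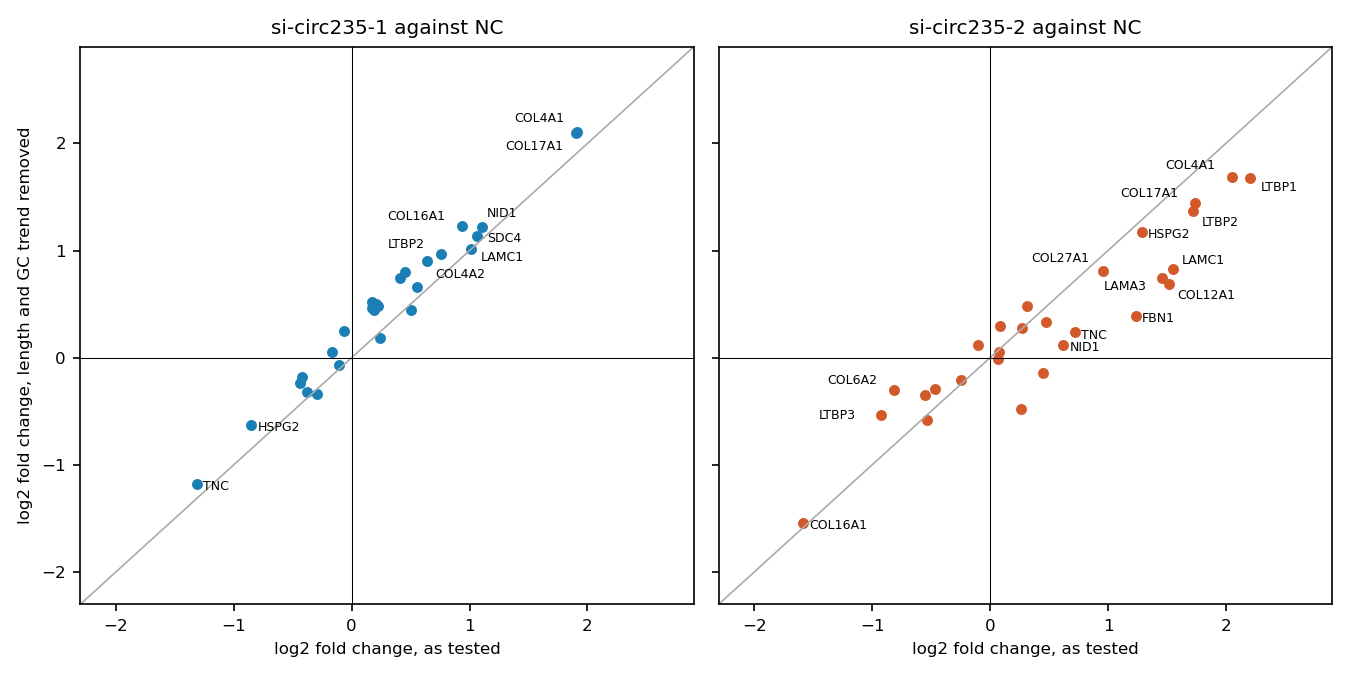
Log2 fold change of the 28 tested matrix genes against NC as tested (x axis) and after removal of the length and GC trend (y axis) for each siRNA, with the line of equal values in grey. Under si-circ235-2 the 12 genes that rose lie below the line, such as FBN1 at 1.23 and 0.39, while COL4A1 keeps 1.68.

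The genes that make and bind the matrix were counted in the same fit. Of 53 genes for collagen modification, export, cleavage, cross-linking and binding, 46 were tested, 1 rose and 2 fell under si-circ235-1, where 2.24% of all genes tested were called higher and 3.64% lower. Under si-circ235-2, 7 of the 46 rose and 6 fell, where 15.7% of all genes were called in each direction. SDC2, which encodes syndecan-2, had 5.64 and 5.74 CPM in NC and 11.8 and 11.4 under si-circ235-1 (log2 fold change 1.03, edgeR adjusted p = 0.0388). P3H2, a prolyl 3-hydroxylase that acts on collagen IV, fell under si-circ235-1 from 52.1 and 64.0 CPM to 26.6 and 32.0 (-0.99, edgeR adjusted p = 0.0202). DAG1, the dystroglycan receptor for laminin and agrin, had 61.5 and 67.9 CPM in NC, 40.6 and 39.9 under si-circ235-1 and 127 and 132 under si-circ235-2. It fell under si-circ235-1 (-0.68, edgeR adjusted p = 0.0452) and rose under si-circ235-2 (1.00, edgeR adjusted p = 0.00327), and the conditions did not overlap.

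Under si-circ235-2 the largest rises on that list were TGFB2, a TGF-beta ligand (1.11, edgeR adjusted p = 0.0249), PXDN, the peroxidase that cross-links collagen IV (1.03, edgeR adjusted p = 0.00883), and LOX, a lysyl oxidase (1.02, edgeR adjusted p = 0.0402). The LOX call was lost on removal of the length and GC trend, at 0.80 (edgeR adjusted p = 0.108). PXDN measured 7.14 and 7.69 CPM in NC, 7.90 and 7.59 under si-circ235-1 and 15.03 and 15.3 under si-circ235-2. GPC1, the proteoglycan glypican-1, fell from 134 and 104 CPM in NC to 45.3 and 35.4 (-1.56, edgeR adjusted p = 0.00182). P3H3, another prolyl 3-hydroxylase family gene, fell as well (-1.02, edgeR adjusted p = 0.0153). PCOLCE, an enhancer of procollagen cleavage, was called lower at -0.85 (edgeR adjusted p = 0.0258), and on removal of the length and GC trend it was at -0.16 and not called (edgeR adjusted p = 0.562).

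Of 77 further symbols in the table that begin as collagen or laminin genes or encode other matrix proteins, 22 were tested, of which 1 rose and 1 fell under si-circ235-1, against the same 2.24% and 3.64% of all genes tested. Under si-circ235-2, 8 of the 22 rose and 1 fell, beside 15.7% of all genes in each direction. One of the 22, COL4A3BP, encodes a lipid transfer protein and no collagen. TGFBI, a TGF-beta induced matrix protein, rose under si-circ235-1 from 4.52 and 5.62 CPM to 12.2 and 11.5 (1.22, edgeR adjusted p = 0.0231). It also rose under si-circ235-2, to 10.5 and 10.3 CPM (1.04, edgeR adjusted p = 0.0113), and was not called between the siRNAs (edgeR adjusted p = 0.572). The si-circ235-2 call was lost on removal of the length and GC trend, at 0.58 (edgeR adjusted p = 0.0647). Under si-circ235-2 large rises were those of LAMA1, the alpha1 laminin chain, from 0.131 and 0.244 CPM to 1.89 and 1.96 (3.30, edgeR adjusted p = 0.00490), and COL8A2, a collagen VIII chain (1.60, edgeR adjusted p = 0.0198). LAMA1 had 2 and 4 counts in the NC libraries and passed the filter on low counts only through siRNA libraries, so the filter favoured its rise. The same holds for FRAS1, also among the rises counted under si-circ235-2. It had 1 and 4 counts in the NC libraries and passed only through the si-circ235-2 libraries, with 16 and 22. BGN, the proteoglycan biglycan, was called lower at -1.18 (edgeR adjusted p = 0.0359), a call lost on removal of the length and GC trend, at -0.69 (edgeR adjusted p = 0.170).

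A microRNA known for collagen targets, miR-29, and miR-330-5p, which the study links to circ235, pair with mRNA through bases 2 to 8 of their mature sequences. These are shown from RefSeq (GRCh38.p14), with those bases in capitals, because the words they match were looked up in the 3' UTRs of the matrix genes.
hsa-miR-29a-3p: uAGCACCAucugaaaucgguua
hsa-miR-29b-3p: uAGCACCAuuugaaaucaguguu
hsa-miR-29c-3p: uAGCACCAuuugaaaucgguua
hsa-miR-330-5p: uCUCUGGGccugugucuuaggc
The 3 members of the miR-29 family share 1 seed. Its word, TGGTGCT, was in the longest annotated 3' UTR of 8 of the 28 tested members (28.6%), COL4A1, COL4A2, COL7A1, COL16A1, COL27A1, HSPG2, LAMC1 and NID1, and of 2014 of 12145 tested genes with a 3' UTR (16.6%). The miR-330-5p word, CCCAGAG, was in 7 members (25%), AGRN, COL4A1, COL12A1, FBN1, LTBP3, NID1 and TNC, and in 2490 of 12145 tested genes (20.5%). Members' 3' UTRs had a median length of 1104 bases, and those of all tested genes 1341. In the transcript with the longest coding part, the 3' UTRs of COL6A2 and FBN1 also held the miR-29 word, and that of FBN1 did not hold the miR-330-5p word. A match describes letters, not a working site.

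The sites in the genes that rose under both siRNAs and also hold the miR-29 word are shown from GENCODE release 29 on GRCh38, in the sense of the mRNA and with the word in capitals, and were picked with those changes known. That of COL4A1 lies at chr13:110150322-110150345 on the minus strand, that of LAMC1 at chr1:183144241-183144264 on the plus strand and that of NID1 at chr1:235977365-235977388 on the minus strand.
COL4A1: aatgtcacaacaTGGTGCTacttc
LAMC1: tatctgacacacTGGTGCTattaa
NID1: aatgttttgtttTGGTGCTctgaa
These 3 genes had log2 fold changes of 1.91, 1.01 and 1.11 under si-circ235-1 and 2.05, 1.55 and 0.62 under si-circ235-2. Other genes with the word did not share a direction under si-circ235-2, where HSPG2 and COL27A1 rose, COL16A1 fell, and COL4A2 and COL7A1 were not called. Genes with the miR-330-5p word also moved both ways there, with COL4A1, COL12A1, FBN1, NID1 and TNC rising, LTBP3 falling and AGRN not called. Under si-circ235-1, COL4A1 and NID1 rose, TNC fell and AGRN, COL12A1, FBN1 and LTBP3 were not called.

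Promoters of 31 of the 36 matrix genes were found in the RefSeq table (GRCh38.p14, 300 bases around each start site), with 39 promoters among them. A GC box, GGGCGG on either strand, was in 30 of the 39 (76.9%) and in 15786 of 35116 promoters in the table (45.0%). A CCAAT box, CCAAT on either strand, was in 7 of the 39 (17.9%), beside 34.6% of all promoters. Some genes have several promoters in the table, and those share sequence. Unlike the 3' UTRs above, the promoters compared were not limited to genes tested here.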

How the data were processed

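The authors sequenced 2 T24 libraries for each siRNA, enriched with oligo dT and not strand-specific, and deposited raw whole-number counts by gene. The submitters' processing notes name FastQC, cutadapt, STAR and hg38, and no counting tool or annotation is stated in the sources used. Reads of overlapping genes and near-identical copies can be assigned to the wrong gene. Conditions came from the labels. The fit used edgeR 4.0.16 in R 4.3.3 (filterByExpr, TMM, quasi-likelihood test, 1 mean per condition over 6 libraries, Benjamini-Hochberg adjustment over 14415 genes, threshold 0.05). The comparison was tested on simulated data. GENCODE release 29 (GRCh38), which holds 99.5% of the identifiers, gave symbols, 3' UTRs, and length and GC content by longest transcript, and RefSeq (GRCh38.p14) gave promoters and microRNAs.

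The matrix genes, the other gene lists and the alternatives were chosen with earlier results of these data known. Values in each library are given for members called against NC, or between the siRNAs with an absolute log2 fold change of at least 1, and the rest by range, with LAMB1 and COL4A3BP named beyond that rule. From the other lists, genes averaging 1 CPM or more are named where they were among the 3 largest called changes in a direction against NC. DAG1 and TGFBI are also described under si-circ235-2, and FRAS1 is named for its low counts. The values of 1 counted gene are not reported here. The fit was repeated with DESeq2 1.42.0, without TMM factors, without the filter, on 2 conditions alone, with the replicate number as a block, with removal of a smooth trend over length and GC content (splines, 5 degrees of freedom), and leaving out each library.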

Additional observations from a re-analysis of the deposited data

How the results depend on the processing

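Each condition had 2 libraries, and the lowest tested members, HSPG2, COL16A1 and COL17A1, rest on 123 to 235 counts. The 34 calls on the 17 matrix genes given by library were recomputed under 12 alternatives, and of 408 values 337 kept direction and call, 70 lost the call and 1 reversed. Calls kept under every alternative numbered 0 of 5 under si-circ235-1, 5 of 15 under si-circ235-2 and 7 of 14 between the siRNAs. Leaving out NC replicate 1 cost 13 calls, replicate 2 of either circ235 siRNA 12 each, and removal of the length and GC trend 11. A condition left with 1 library was assumed to vary like the others. Of 204 values not called, 21 became calls and 7 reversed. The causes were not tested.

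After that removal, members called higher numbered 13 under si-circ235-1, 7 under si-circ235-2 and 5 between the siRNAs. Without TMM factors 4 were lower between the siRNAs. With a library left out, the numbers of members called could change, and so could those over all genes tested. Values that reversed were LAMC1 between the siRNAs at -0.18 and COL4A1 at -0.42 (both trend removed), COL17A1 between the siRNAs at 0.16 (no TMM factors), 0.29 (lacking si-circ235-1 replicate 1) and 0.12 (lacking replicate 2 of si-circ235-2), with a range of -0.54 to 0.29 over the left-out libraries, and LTBP3 under si-circ235-1 at 0.24 (trend removed), 0.14 (lacking NC replicate 1) and 0.01 (lacking si-circ235-1 replicate 1), with a range of -0.21 to 0.14.

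The labels do not say whether same-numbered libraries were prepared together. Deviations of same-numbered libraries correlated at -0.0943, 0.149 and 0.139. Each condition gave a single such deviation, so these values cannot settle whether replicate numbers pair the samples. With the replicate number as a block, 6 members fell under si-circ235-2 in place of 3, and 0 of the 34 calls were lost. Over all 14415 genes tested, 2439 were called lower there in place of 2260. For si-circ235-1 against NC, 323 of these genes were called higher and 524 lower with no alternative applied. These became 669 and 779 with DESeq2, and 1189 and 780 with the trend removed. They were 755 and 953 with 2 conditions alone, 369 and 568 with the block, and 611 and 1067 of 25830 genes without the filter. Under si-circ235-2, 2270 higher and 2260 lower became 1615 and 2113 with the trend removed. The list counts below thus changed beside calls over all genes.

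For the modification and binding list, added after seeing the data, calls under si-circ235-1 numbered 3 and became 11 with DESeq2, 11 with the trend removed, 5 without the filter, 9 with 2 conditions alone and 5 with the block, and 0 to 7 with a library left out. They ran from 2 to 12 under si-circ235-2 and 12 to 20 between the siRNAs. For the further matrix symbols, 2 calls under si-circ235-1 became 5 (trend removed) and 4 (no filter), 9 under si-circ235-2 became 5 (trend removed), and leaving out a library gave 0 to 2, 2 to 9 and 6 to 9.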

Other observations

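FN1, which encodes fibronectin and is no member of the list, measured 38.8 and 49.8 CPM in NC, 30.7 and 31.2 under si-circ235-1 and 117 and 115 under si-circ235-2. It rose under si-circ235-2 (log2 fold change 1.39, standard error 0.19, edgeR adjusted p = 0.00182), and under si-circ235-1 the change was -0.52 (standard error 0.19, edgeR adjusted p = 0.122). Like TNC and DAG1, it was highest under si-circ235-2 and lowest under si-circ235-1, and all 3 were picked for this pattern after their values were seen. CD14, fixed as a leukocyte marker, had 2.82 and 2.87 CPM in NC, 10.97 and 9.93 under si-circ235-1 and 2.12 and 1.72 under si-circ235-2, while PTPRC, which marks all leukocytes, had 0 counts in every library.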
